A study of Danio rerio with 13 samples.

Results

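The 10 genes described here mark fibroblasts and tenocytes, the cells that build the connective tissue and the tendons of muscle. They were chosen by gene name, with earlier results of these data known. They are the transcription factor genes twist1a, twist1b, twist2 and the 2 PRRX1 copies, the receptor gene pdgfra, the tendon genes scxa and tnmd, and the matrix genes dcn and lum. The 10 names were matched by gene symbol to 10 identifiers of the 32105 genes in the count table, and all 10 passed the filter on low counts. Where a symbol with a final a or b was absent, the symbol without it was used, as for scxa and the PRRX1 copies. The zebrafish genes prrx1a and prrx1b both carry the symbol PRRX1 in the annotation used, without a letter, so the copies are called by their identifiers ENSDARG00000033971 and ENSDARG00000042027.

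Fibroblasts of muscle lie between the fibres and make the collagens and proteoglycans that hold the tissue together, while tenocytes sit where fibres attach to tendon or, in fish, to the myosepta between the muscle blocks. Twist proteins are basic helix-loop-helix (bHLH) transcription factors and Prrx1 proteins are paired-type homeobox factors, and both families are used as marks of mesenchymal cells. The receptor tyrosine kinase made from pdgfra binds platelet-derived growth factors and is the common surface mark of muscle fibroblasts and their progenitors. Scleraxis, the product of scxa, is the bHLH factor that specifies tendon, and tenomodulin, the product of tnmd, is a membrane protein of mature tenocytes. Decorin and lumican, the products of dcn and lum, are small leucine-rich proteoglycans that bind collagen fibrils and control their thickness.

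The samples were muscle RNA of male AB zebrafish aged 3 months, with 3 samples from tert-/- fish (both alleles of the telomerase gene tert mutant, line hu3430), 5 from tert+/- fish (1 mutant allele) and 5 from wild types. Telomerase, the enzyme that lengthens chromosome ends, needs the protein made from tert, and the comparison asks how muscle transcripts differ with the number of working copies. The replicate numbers used below follow the order of the sample records and are only names. Nothing in the labels states that each sample came from a separate fish. The study's methods give n = 5 wild type, 5 tert+/- and 3 tert-/- and speak of animals, which matches the sample numbers. They do not tie each muscle sample to 1 fish, so the p-values are read as measuring the spread between these samples.

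Total counts per library lay between 10585558 and 47492321. In 3 libraries, 1 per genotype (tert-/- replicate 1, tert+/- replicate 1 and wild type replicate 5), a list of 15 testis genes held 145, 77.7 and 29.7 times its median share of counts, against at most 2.50 times in the other 10 libraries. TMM factors (trimmed mean of M-values), which scale the libraries to each other over genes of middling change, were 2.30, 2.03 and 1.07 in those 3 libraries and 0.771 to 0.922 in the other 10. Levels are given as CPM, the counts scaled to the library total times its TMM factor. The fold changes of the 10 genes and the list counts are also given without those 3 libraries. CPM levels of single genes named from the lists include those 3. The summed level of 13 fast muscle genes, which mark the labelled tissue, was 110872 to 435273 CPM in tert-/-, 87146 to 385681 CPM in tert+/- and 262308 to 426705 CPM in wild type. The transcript of tert itself held 2.02 to 6.0 CPM in tert-/-, 5.68 to 7.82 CPM in tert+/- and 4.90 to 9.73 CPM in wild type, so the tert-/- samples were not all outside the wild type range. The libraries are of bulk tissue, in which fewer cells of a type and less RNA per cell cannot be told apart.

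Over all 13 libraries the 10 genes spanned a wide range of length-scaled levels, here RPKM, reads scaled by gene length and by each library's own total. The proteoglycan gene dcn stood far above the rest with 44.3 ± 12.5 RPKM (SD, n = 13), and it was higher than tnmd in all 13 libraries with no overlap of their ranges. The tendon gene tnmd followed with 5.71 ± 1.54 RPKM, then lum with 4.94 ± 2.90 RPKM and scxa with 3.96 ± 1.34 RPKM (SD, n = 13 each). Those neighbours changed places between libraries, since tnmd was above lum in 9 of 13 and lum above scxa in 7 of 13. The copy ENSDARG00000033971 of PRRX1 reached 2.76 ± 0.931 RPKM, pdgfra 2.06 ± 0.461 RPKM and twist1b 1.69 ± 0.667 RPKM (SD, n = 13 each). The lowest 3 were twist1a with 0.992 ± 0.438 RPKM, twist2 with 0.767 ± 0.355 RPKM and PRRX1 ENSDARG00000042027 with 0.541 ± 0.304 RPKM (SD, n = 13 each). Every neighbouring pair in this order had overlapping ranges apart from dcn and tnmd, although twist1b was above twist1a in all 13 libraries. Among the 27056 genes with any count, dcn stood at the 97.8th percentile of mean RPKM and PRRX1 ENSDARG00000042027 at the 49.3rd.

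**Figure D1:**
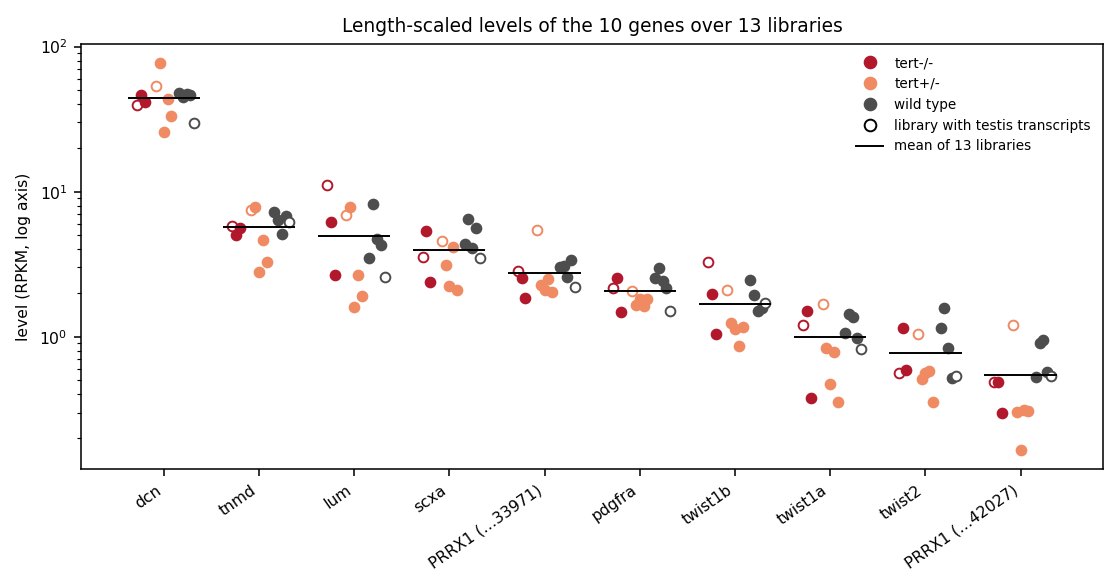
Length-scaled level (RPKM, log axis) of each gene in each of 13 libraries, ordered by the mean over the libraries (black line); colours give the genotype and open points the 3 libraries with testis transcripts. The points of dcn, with a mean of 44.3 RPKM, lie above those of every other gene, and the ranges of all other neighbours overlap.

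In both mutant genotypes the mean level of all 10 genes was lower than in wild type, and no gene passed the test. The median log2 fold change of the 10 was −0.51 in tert-/- against wild type, beside −0.03 for all 19407 genes tested, of which 52.3% were lower. In tert+/- against wild type it was −0.67, beside 0.00 for all genes, of which 49.8% were lower. With edgeR's quasi-likelihood test 0% of all genes tested were called at an adjusted p under 0.05 in either comparison, with 496 and 557 genes at an unadjusted p under 0.05, and limma-voom called 0 in both. DESeq2 called 1 gene in tert-/- against wild type and 0 in tert+/- against wild type. That gene was nlrc8, counted in 6 of 13 libraries and not among the 10, and it is named here because of its values. Of the 10 genes, 1 had an unadjusted p under 0.05 in tert-/-, where 1.36% of all genes did so in the lower direction, and 3 did in tert+/-, where 1.71% did. The gene in tert-/- was PRRX1 ENSDARG00000042027, and those in tert+/- were the same copy, twist1b and scxa. The comparisons share their wild type libraries, so the 2 sets of values are not independent. The genes were chosen with earlier results of these data known, so their shared direction is given as a description.

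**Figure D2:**
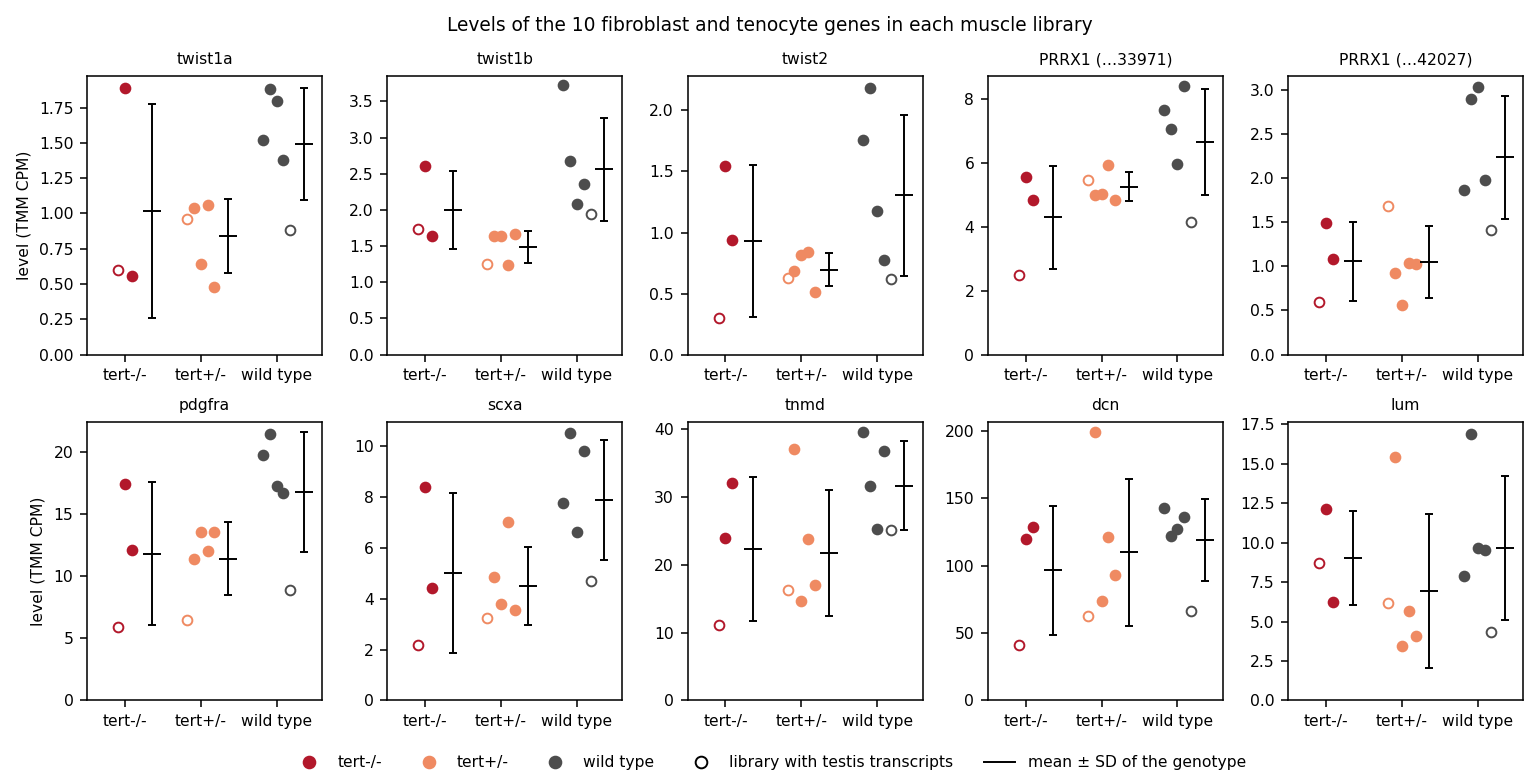
Level (CPM with TMM factors) of each of the 10 genes in every library, by genotype; open points are the 3 libraries with testis transcripts, and the bars beside the points are the mean ± SD of the genotype (n = 3, 5 and 5). The tert+/- points of twist1b, 1.24 to 1.67 CPM, all lie below the wild type points, and the genotypes overlap for the other 9 genes.

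Of the 3 twist genes, twist1b (ENSDARG00000076010) separated tert+/- from wild type most clearly. It held 1.73, 2.61 and 1.65 CPM in tert-/- replicates 1 to 3 and 1.26, 1.64, 1.63, 1.24 and 1.67 CPM in tert+/- replicates 1 to 5, against 3.73, 2.68, 2.09, 2.36 and 1.94 CPM in wild type replicates 1 to 5. Every tert+/- library was below the lowest wild type library, whereas tert-/- replicate 2 was within the spread of the wild types. Groups that did not overlap in this direction were found for 0.34% of all genes. The log2 fold change of twist1b was −0.79 (SE 0.25, unadjusted p = 0.00796, adjusted p = 1.0 with edgeR) in tert+/- and −0.36 (SE 0.29, adjusted p = 0.992) in tert-/-, each against wild type. Without the 3 libraries the values were −0.79 (SE 0.24, adjusted p = 0.552) and −0.30 (SE 0.30, adjusted p = 1.0).

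Its paralog twist1a (ENSDARG00000030402) was a lowly counted gene, with 10 to 76 counts per library. It held 0.598, 1.89 and 0.558 CPM in tert-/-, 0.961, 1.04, 0.645, 1.06 and 0.481 CPM in tert+/-, and 1.52, 1.88, 1.79, 1.38 and 0.884 CPM in wild type. The highest of all libraries was tert-/- replicate 2, the other tert-/- libraries were below every wild type, and only wild type replicate 5 overlapped with tert+/-. With edgeR it gave a log2 fold change of −0.83 (SE 0.39, unadjusted p = 0.0549) in tert+/- and −0.56 (SE 0.46) in tert-/- against wild type. Without the 3 libraries twist1a did not overlap between tert+/- and wild type, where 2.69% of all genes were separated in this direction. Its log2 fold change was then −1.004 (SE 0.39, adjusted p = 0.552 with edgeR), and −0.38 (SE 0.47) in tert-/-.

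The dermal and fibroblast factor gene twist2 (ENSDARG00000078266) was the most scattered of the 3 among the wild types. Its counts were 7 to 71 per library. It held 0.299, 1.54 and 0.941 CPM in tert-/-, 0.629, 0.685, 0.817, 0.841 and 0.513 CPM in tert+/-, and 1.76, 2.19, 1.17, 0.778 and 0.619 CPM in wild type. The tert+/- libraries lay close together at the level of the lowest wild types, and the genotypes overlapped. On the log2 scale the difference was −0.91 (SE 0.45) in tert+/- and −0.51 (SE 0.52) in tert-/-, each set against wild type, and −1.03 (SE 0.35) and −0.20 (SE 0.42) without the 3 libraries. The ratio of twist1a to twist1b counts within a library, which needs no scaling, was 0.589 ± 0.242 in tert+/-, against 0.601 ± 0.184 in wild type (SD, n = 5 each), with p = 0.794 in the exact permutation test.

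Of all 10 genes the copy ENSDARG00000042027 of PRRX1 had the largest fold change in both comparisons. It held 0.598, 1.49 and 1.09 CPM in tert-/- and 1.69, 0.923, 0.559, 1.04 and 1.03 CPM in tert+/-, against 1.86, 2.90, 3.03, 1.97 and 1.41 CPM in wild type, from 13 to 94 counts per library. All mutant libraries lay below the wild type median, and the overlap came from tert-/- replicate 2, tert+/- replicate 1 and wild type replicate 5. EdgeR gave a log2 fold change of −1.08 (SE 0.42, unadjusted p = 0.0233, adjusted p = 0.992) in tert-/- and −1.09 (SE 0.36, unadjusted p = 0.00892, adjusted p = 1.0) in tert+/-. When the 3 libraries were left out, tert+/- and tert-/- were both entirely below wild type, with −1.44 (SE 0.28, unadjusted p = 0.000415, adjusted p = 0.552) and −0.89 (SE 0.35, adjusted p = 1.0). Of all genes, 2.69% and 7.1% were separated in this direction. On the same 10 libraries DESeq2 gave −1.43 with an adjusted p of 0.0107 in tert+/-, and 0.0825% of the genes with an adjusted p were called lower there. That fit was added after the data were seen. DESeq2 on all 13 libraries called 0 of the 10 genes in tert+/-, where it called 0 of all 25326 genes tested.

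The second copy, ENSDARG00000033971, was counted more often (47 to 282 counts per library). It held 2.48, 5.57 and 4.85 CPM in tert-/-, 5.47, 5.00, 5.03, 5.96 and 4.84 CPM in tert+/-, and 7.66, 7.09, 5.97, 8.43 and 4.15 CPM in wild type. The tert+/- libraries were alike and lay between wild type replicate 5 and the other 4 wild types, while tert-/- replicate 1 was the lowest of all. Its log2 fold change was −0.63 (SE 0.30, adjusted p = 0.992 with edgeR) in tert-/- and −0.34 (SE 0.25, adjusted p = 1.0) in tert+/-. Leaving out the 3 libraries gave −0.45 (SE 0.19) and −0.47 (SE 0.15). Both mutant groups then lay below wild type with no overlap, as 7.1% of all genes did in tert-/- and 2.69% in tert+/-. The gap in tert+/- was narrow, between 5.96 CPM in replicate 4 and 5.97 CPM in wild type replicate 3. On plain CPM over all 13 libraries the value in tert+/- was 0.00 (SE 0.32), so its lower level over all 13 depends on the scaling. There tert+/- replicate 1, a library with testis transcripts, held 11.1 CPM, above the highest wild type at 6.86 CPM. Without the 3 libraries tert+/- lay below wild type with no overlap on plain CPM too, as 1.88% of all genes did.

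The 2 copies were compared within each library, a ratio chosen after the levels had been seen. Counts of ENSDARG00000042027 over those of ENSDARG00000033971 were 0.241, 0.268 and 0.224 in tert-/- and 0.309, 0.185, 0.111, 0.174 and 0.212 in tert+/-, against 0.243, 0.409, 0.508, 0.234 and 0.340 in wild type. The lower copy thus formed a smaller part of the pair in 4 of 5 tert+/- libraries than in any wild type library. The means were 0.198 ± 0.072 in tert+/-, against 0.347 ± 0.115 in wild type (SD, n = 5 each), with p = 0.0397 in a two-sided exact permutation test on the log2 ratio and p = 0.635 adjusted over 24 tests. Over the 10 other libraries they were 0.170 ± 0.043 in tert+/-, against 0.349 ± 0.133 in wild type (SD, n = 4 each) with no overlap, exact p = 0.0286, the smallest this design allows, and adjusted p = 0.343. In tert-/- the ratio was 0.244 ± 0.022 (SD, n = 3), and the test against wild type gave an exact p of 0.232. The sources used here do not state how reads shared by the copies were counted, so the split between them is uncertain.

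**Figure D3:**
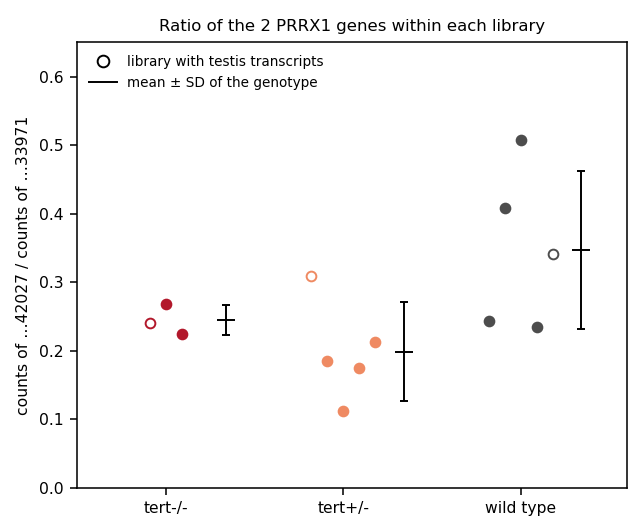
Counts of PRRX1 ENSDARG00000042027 divided by counts of PRRX1 ENSDARG00000033971 within each library, by genotype; open points are the libraries with testis transcripts and bars are the mean ± SD (n = 3, 5 and 5). The filled tert+/- points, 0.111 to 0.212, lie below all wild type points, and the open tert+/- point at 0.309 lies among them.

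As was dcn (41.2 to 66.5 CPM there, 73.4 to 199 CPM in the other 10), the receptor gene pdgfra (ENSDARG00000070494) was lowest in the 3 libraries with testis transcripts. It held 5.88, 17.4 and 12.1 CPM in tert-/-, 6.43, 11.3, 13.5, 12.0 and 13.5 CPM in tert+/-, and 19.7, 21.4, 17.2, 16.7 and 8.84 CPM in wild type. Those 3, the lowest of each genotype, were below all other 10 libraries, and among the 10 the tert+/- libraries were below the wild types. On plain CPM, 9.45 to 13.5, they were inside the range of the other 10 libraries, 9.34 to 18.8 CPM. EdgeR put its log2 fold change at −0.51 (SE 0.37) in tert-/- and −0.56 (SE 0.32) in tert+/- (adjusted p = 0.992 and 1.0). Without the 3 libraries tert+/- lay entirely below wild type, 12.6 ± 1.11 against 18.8 ± 2.20 CPM (SD, n = 4 each), where 2.69% of all genes did so. The log2 fold change was then −0.56 (SE 0.16, unadjusted p = 0.00492, adjusted p = 0.552), and tert-/- gave −0.31 (SE 0.19).

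Of the tendon genes, scxa (ENSDARG00000035695) held 2.20, 8.41 and 4.44 CPM in tert-/-, 3.25, 4.85, 3.78, 7.02 and 3.56 CPM in tert+/-, and 7.76, 10.5, 6.65, 9.84 and 4.68 CPM in wild type. Only tert+/- replicates 2 and 4 and tert-/- replicate 2 reached the wild type range. In edgeR its log2 fold change was −0.81 (SE 0.36, unadjusted p = 0.0426, adjusted p = 1.0) in tert+/- and −0.66 (SE 0.42) in tert-/-, and −0.85 (SE 0.27) and −0.40 (SE 0.33) without the 3 libraries. For tnmd (ENSDARG00000052615), the tenocyte surface gene, the levels were 11.1, 24 and 32.1 CPM in tert-/-, 16.3, 37.2, 14.6, 23.8 and 17.0 CPM in tert+/-, and 39.7, 31.6, 25.4, 36.8 and 25.1 CPM in wild type. Here 4 of 5 tert+/- libraries and 2 of 3 tert-/- libraries were below every wild type, and tert+/- replicate 2 was near the top. The log2 fold change of tnmd was −0.54 (SE 0.32) in tert+/- and −0.50 (SE 0.37) in tert-/- (adjusted p = 1.0 and 0.992). It was −0.51 (SE 0.28) and −0.21 (SE 0.34) without the 3 libraries.

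The matrix genes had the smallest fold changes in tert-/-. The decorin gene dcn (ENSDARG00000012066), counted 753 to 6676 times per library, held 41.2, 119.5 and 129 CPM in tert-/-, 62.7, 199, 73.4, 121 and 92.8 CPM in tert+/-, and 143, 122, 127, 136 and 66.5 CPM in wild type. Its tert+/- libraries ran on either side of the wild types, and without the 3 libraries the spread was 45.3% of the mean in tert+/- (n = 4) and 6.91% in wild type (n = 4). The fitted log2 value of dcn was −0.30 (SE 0.44) in tert-/- and −0.12 (SE 0.38) in tert+/-, and −0.05 (SE 0.32) and −0.11 (SE 0.26) without the 3 libraries. On plain CPM over all 13 libraries the value in tert+/- was 0.10 (SE 0.26), and without tert-/- replicate 1 the value in tert-/- was 0.10 with TMM factors.

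The lumican gene lum (ENSDARG00000045580) held 8.69, 12.1 and 6.26 CPM in tert-/-, 6.16, 15.4, 3.44, 5.66 and 4.07 CPM in tert+/-, and 7.90, 16.9, 9.68, 9.51 and 4.33 CPM in wild type. The high libraries were tert+/- replicate 2 and wild type replicate 2, and the genotypes overlapped widely. The fitted log2 value of lum was −0.10 (SE 0.50) in tert-/- and −0.48 (SE 0.44) in tert+/-, and −0.23 (SE 0.57) and −0.61 (SE 0.47) without the 3 libraries. On plain CPM the value in tert-/- was 0.51 (SE 0.60), and the value in tert-/- was also above 0 without wild type replicate 2 (0.20) or without tert-/- replicate 3 (0.09).

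**Figure D4:**
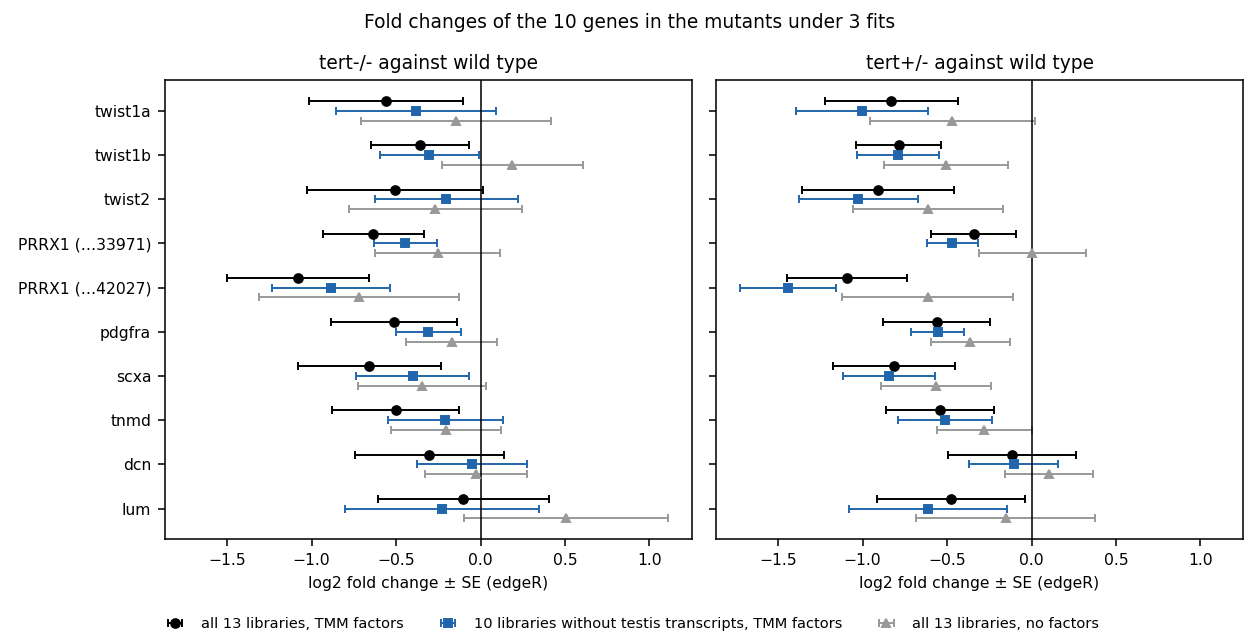
Log2 fold change ± SE of each gene from edgeR, in tert-/- (left) and tert+/- (right) against wild type, under 3 fits; a value below 0 is lower in the mutant. All 10 points lie below 0 in both comparisons with TMM factors, and 8 of 10 do on plain CPM.

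Leaving out the 3 libraries with testis transcripts left all 10 genes lower in both comparisons, where 52.8% (tert-/-) and 49.6% (tert+/-) of all genes were lower. The median log2 fold change of the 10 was −0.31 in tert-/- and −0.70 in tert+/-, beside −0.02 and 0.00 for all genes. In tert+/- against wild type 7 of 10 genes then had an unadjusted p under 0.05 with edgeR, where 3.8% of all 17970 genes did so in the lower direction, and the lowest adjusted p was 0.552. The 3 others were tnmd, dcn and lum. Levels did not overlap between tert+/- and wild type for 5 genes (twist1a, twist1b, both PRRX1 copies and pdgfra), where 2.69% of all genes were separated in this direction on TMM-scaled CPM and 1.88% on plain CPM, which separated the same 5. Each of the 5 had an exact permutation p of 0.0286, the smallest possible with 4 libraries against 4, and 0.171 after adjustment over 30 tests. In tert-/- against wild type, with 2 and 4 libraries left, the 2 PRRX1 copies had an unadjusted p under 0.05 (1.42% of all genes) and did not overlap (7.1% of all genes).

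Plain CPM over all 13 libraries gave a less uniform picture. There the median log2 fold change of all genes was 0.49 in tert-/- and 0.29 in tert+/- against wild type, and that of the 10 genes was −0.19 and −0.42. In each comparison 8 of 10 genes were lower, the exceptions being twist1b and lum in tert-/- and dcn and PRRX1 ENSDARG00000033971 in tert+/-. None of the 10 separated tert+/- from wild type on this scale, where 0.0618% of all genes did in the lower direction. In tert-/- 1 of the 10 lay entirely below wild type, where 0.247% of all genes did. It was PRRX1 ENSDARG00000042027, with 1.37, 1.37 and 0.839 CPM in tert-/-, against 1.49, 2.54, 2.67, 1.61 and 1.51 CPM in wild type.

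Each gene was also compared by a two-sided exact permutation test on log2(CPM + 0.5), 30 tests in all. In tert+/- against wild type the p-values were 0.00794 for twist1b, which is the smallest the design allows, 0.0159 for PRRX1 ENSDARG00000042027, 0.0317 for twist1a and 0.0397 for scxa. Adjusted over the 30 exact tests they were 0.238, 0.238, 0.298 and 0.298. In tert-/- against wild type the lowest exact p was 0.0536, for PRRX1 ENSDARG00000042027, where the smallest possible is 0.0179. On plain CPM the lowest exact p in either comparison was 0.0714, with an adjusted p of 0.714.

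Taking the libraries one by one, the tert+/- values lay below the wild type median in 47 of 50 cases (5 libraries by 10 genes) and the tert-/- values in 22 of 30. On plain CPM these were 38 of 50 and 21 of 30. The 10 genes of a library share its scaling and mostly vary together, so these cases are not separate observations. The same count over all genes was not made. In tert+/- replicate 1, which held testis transcripts, all 10 genes were below that median with TMM factors and 1 was on plain CPM. In tert+/- replicates 3, 4 and 5 all 10 genes were below the wild type median on both scales. In tert+/- replicate 2, the exceptions were tnmd, dcn and lum. The tert-/- libraries differed from each other, since replicate 1 had all 10 genes below the wild type median and the lowest value of all libraries for 6, replicate 3 had 8 and replicate 2 had 4. On plain CPM tert-/- replicate 1 had 7 genes below that median and the lowest value for 0, and replicate 3 had all 10. Wild type replicate 5, which also held testis transcripts, had all 10 genes below its genotype's median with TMM factors and 9 on plain CPM.

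Between tert-/- and tert+/- the levels of all 10 genes overlapped over the 13 libraries. The median log2 fold change was 0.10, with 8 of 10 higher in tert-/-, the exceptions being dcn (−0.19, SE 0.44) and PRRX1 ENSDARG00000033971 (−0.29, SE 0.29), and none had an unadjusted p under 0.05, as 1.46% of all genes did. The largest value was 0.43 (SE 0.28, adjusted p = 1.0 with edgeR) for twist1b. Without the 3 libraries all 10 were higher in tert-/- with a median of 0.41, with the largest, 0.82 (SE 0.42, adjusted p = 1.0 with edgeR), for twist2. There tert-/- (2 libraries) lay entirely above tert+/- (4 libraries) for twist2 and PRRX1 ENSDARG00000042027, where 4.19% of all genes did so, and on plain CPM for twist2, where 2.62% did. Leaving out a single library turned the direction for 7 of the 10 in this comparison, all but twist1b, PRRX1 ENSDARG00000033971 and lum. Fitted against how many tert alleles were mutant, all 10 genes had a negative slope, and the unadjusted p was under 0.05 for the 2 PRRX1 copies. The log2 change per allele was −0.59 (SE 0.20, adjusted p = 0.981) for ENSDARG00000042027 and −0.32 (SE 0.14, adjusted p = 0.981) for ENSDARG00000033971, and 1.77% of all genes reached such a p in the lower direction. The slopes of these copies were −0.56 (SE 0.22) and −0.26 (SE 0.09) without the 3 libraries.

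The spread between libraries was larger than counting error for the abundant genes. For dcn the coefficient of variation among the 5 tert+/- libraries was 49.6% where counting alone gives 1.90%, and for tnmd it was 42.7% against 4.17%. For the lowly counted twist1b it was 26.8% in tert-/-, 14.7% in tert+/- and 27.7% in wild type, where counting alone gives 11%, 14.8% and 13.7%. For twist2 it was 67.1% in tert-/-, 19.5% in tert+/- and 50.8% in wild type, where counting alone gives 18%, 21.9% and 22%. The spread of these 2 genes was thus close to counting error in tert+/- and above it in the other genotypes.

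Across the 10 libraries without testis transcripts most of the genes were high or low together. Of the 45 pairs, 44 had a positive Pearson r of log2(CPM + 0.5), with a median of 0.66, and 6 had an adjusted permutation p under 0.05, as 2 had for Spearman's rho. All pairs share the same libraries and scaling factors, so they are not independent. Values for pairs of other genes were not set beside these, so the relation is not shown to be particular to the 10 genes. Pair by pair, r is also given without the 2 libraries farthest from the median of the first gene. The closest pair was twist1b and pdgfra, with r = 0.89 (permutation p = 0.00091, adjusted p = 0.019) and Spearman's rho = 0.88 (permutation p = 0.00152), and r = 0.92 without the 2 farthest. Next came twist1a and scxa, with r = 0.88 (permutation p = 0.00127, adjusted p = 0.019) and rho = 0.84 (permutation p = 0.00374), and r = 0.81 without the 2 farthest. These pairs join a mesenchymal factor to the receptor and to the tendon factor.

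The tendon and matrix genes tnmd and dcn had r = 0.88 (permutation p = 0.00014, adjusted p = 0.0063) and rho = 0.96 (permutation p = 8e-05), and r = 0.63 without the 2 farthest. PRRX1 ENSDARG00000033971 and scxa had r = 0.85 (permutation p = 0.00245, adjusted p = 0.0276) and rho = 0.83 (permutation p = 0.00473), and r = 0.91 without the 2 farthest. Also paired were twist2 and the receptor gene pdgfra (r = 0.82, adjusted permutation p = 0.0339, rho = 0.77, r = 0.59 without the 2 farthest). So were PRRX1 ENSDARG00000042027 and pdgfra (r = 0.80, adjusted permutation p = 0.0475, rho = 0.71, r = 0.75 without the 2 farthest). The lowest value was that of pdgfra and dcn (r = −0.02, permutation p = 0.964, rho = −0.07, permutation p = 0.865, r = 0.44 without the 2 farthest).

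Part of this relation lay between genotypes. With the mean of each genotype subtracted, the median r was 0.25, 37 of 45 pairs were positive, and tnmd with dcn was the 1 pair with an adjusted permutation p of Pearson's r under 0.05. That pair had r = 0.92 (permutation p = 0.00013, adjusted p = 0.00585), and r = 0.81 without the 2 farthest, but on ranks its rho of 0.88 (permutation p = 0.00162) had an adjusted p of 0.0729. The values of pdgfra were then −0.49 with tnmd (permutation p = 0.147) and −0.47 with dcn (permutation p = 0.17). The permutations after the subtraction took no account of the subtracted means, so these p-values are approximate and may be too small. On plain CPM 17 pairs had an adjusted p under 0.05 before the subtraction.

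**Figure D5:**
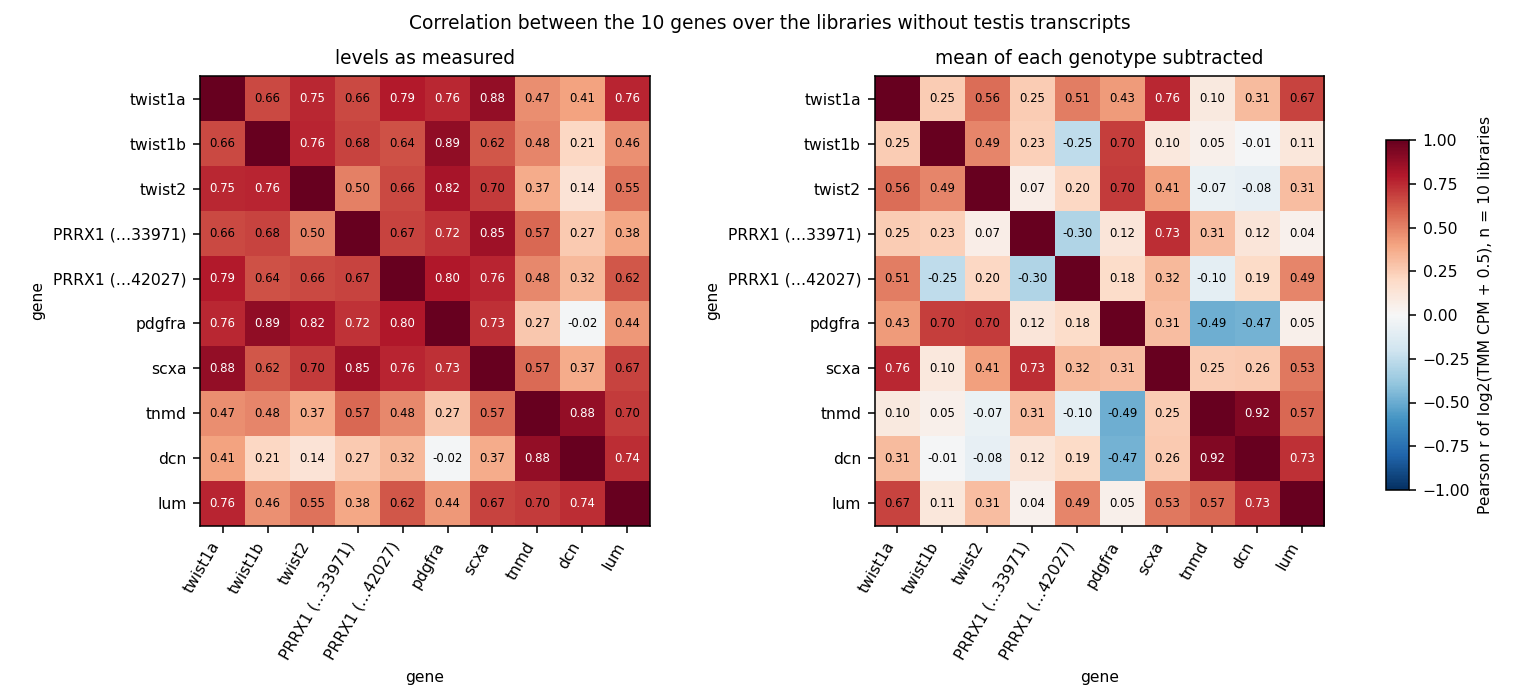
Pearson r of log2(CPM + 0.5) for each pair of the 10 genes over the 10 libraries without testis transcripts, as measured (left) and with the mean of each genotype subtracted (right); red is positive and blue negative. The block of twist, PRRX1, pdgfra and scxa genes fades on the right, while tnmd with dcn is at 0.92.

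Among 12466 genes with a symbol and a mean of at least 1 CPM in those libraries, the 3 most like each member in Pearson r were listed, and none of them was another member. For dcn they were COL5A1 (r = 0.98), col16a1 (0.97), both collagens, and FNDC1 (0.96). For tnmd they were the fibrillar collagen gene col11a1b, PAMR1 and the cartilage matrix gene ucmaa (0.95 each). For lum, also a matrix gene, they were CPLX2, phka1a and LRP1 (0.95 each). For PRRX1 ENSDARG00000042027 they were HEATR5A (0.93), dcbld2 (0.92) and fzr1b (0.91). For twist2 they were GJA3 (0.96), DGAT1 (0.94) and ACOT11 (0.93). The others included NR2F2 (0.94), a nuclear receptor, and MYBPC1 (0.92) for twist1a, and PRDM2 (0.95) among those of twist1b. They also included ACVR2A (0.94), an activin receptor, for PRRX1 ENSDARG00000033971, the homeobox gene MEIS1 (0.93) among those of pdgfra, and arl4ab (0.95) for scxa. These are the highest of many correlations over 10 libraries and are given as a description.

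Lists of related genes gave the setting of the 10. Of 11 small leucine-rich proteoglycan genes besides dcn and lum, 7 were lower in tert-/- and 8 in tert+/- than in wild type (median log2 fold change −0.39 and −0.27). Without the 3 libraries 7 and 10 were lower (−0.16 and −0.29), beside medians of −0.02 and 0.00 for all genes. The proteoglycan gene epyc held 0.663 ± 0.188 CPM in tert-/-, 0.744 ± 0.330 CPM in tert+/-, against 1.16 ± 0.223 CPM in wild type, whereas BGN, the biglycan gene, held 4.89 ± 3.70 CPM in tert-/-, against 2.17 ± 1.95 CPM in wild type (SD, n = 3 or 5). Of 7 PDGF ligands and other receptors, 5 were lower in tert-/- and 4 in tert+/- (−0.26 and −0.18). Among them PDGFC, a ligand of the receptor made from pdgfra, held 2.04 ± 0.431 CPM in tert-/-, 1.86 ± 0.683 CPM in tert+/-, against 2.63 ± 1.20 CPM in wild type. Without the 3 libraries 3 of the 7 were lower in tert-/- and 4 in tert+/- (0.13 and −0.01).

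Of 13 other tendon and myoseptum genes 12 were lower in tert-/- and 11 in tert+/- (−0.34 and −0.30). Without the 3 libraries 10 and 12 were lower (−0.08 and −0.28), so the shift in tert-/- was much smaller there. The tendon homeobox gene MKX held 1.68 ± 0.889 CPM in tert+/-, with 2.52 ± 0.634 CPM in wild type (SD, n = 5 each), a log2 fold change of −0.59 (SE 0.35), and −0.96 (SE 0.26, adjusted p = 0.552 with edgeR) without the 3 libraries. The fibril-associated collagen gene COL12A1 held 31.8 ± 14.9 CPM in tert-/- (SD, n = 3), with 53.1 ± 15.3 CPM in wild type (SD, n = 5). These values include the libraries with testis transcripts. The summed tendon and myoseptum list held 377 to 1450 CPM in tert-/- with all libraries and 1234 to 1450 CPM without those 3. In wild type it held 1047 to 1580 CPM and 1290 to 1580 CPM. Of 25 collagen fibril and crosslinking genes 23 were lower in tert-/- and 20 in tert+/- (−0.27 and −0.20), and 18 and 20 without the 3 libraries (−0.05 and −0.20). Among them loxl2a, a lysyl oxidase gene, held 28.2 ± 27.4 CPM in tert+/-, with 10.9 ± 3.58 CPM in wild type (log2 fold change 1.37, SE 0.60, adjusted p = 1.0 with edgeR). Of 18 other mesenchymal factor genes 14 were lower in each comparison (−0.28 and −0.20), and 14 and 15 were without the 3 libraries (−0.12 and −0.22). Of 8 partners and inhibitors of bHLH factors 6 were lower in tert-/- and 2 in tert+/- (−0.17 and 0.19), but 3 and 2 were without the 3 libraries (0.10 and 0.15). None of the genes in these 6 lists was called.

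Markers of other cell types were read beside these values. The summed level of 13 bone and cartilage genes was 51.7 to 130.0 CPM in tert-/- and 70.8 to 146 CPM (median 77.5) in tert+/-, against 105 to 192 CPM (median 143) in wild type. Of the 11 of them that were tested, 8 were lower in tert-/- and 10 in tert+/-, and 9 in each without the 3 libraries. Muscle stem cell genes summed to 19.3 to 62.6 CPM in tert-/-, 29.7 to 69.2 CPM in tert+/- and 45.3 to 74.1 CPM in wild type, and 7 and 6 of the 7 tested were lower, with 1 and 5 of 6 lower without the 3 libraries. So the bone and cartilage markers, like the 10 genes, were mostly lower in both mutants with and without those libraries. Adipocyte genes, given below, also had more genes lower than higher in each case, but mostly by 4 of 7, where 49.6% to 52.8% of all genes were lower. Their median log2 fold change was −0.12 in tert-/- and −0.05 in tert+/-, and −0.04 and −0.35 without those libraries.

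Endothelial and mural genes summed to 277 to 430.2 CPM in tert-/-, 259 to 550.3 CPM in tert+/- and 206 to 445 CPM in wild type, with 13 and 6 of 14 lower, and 13 and 7 without the 3 libraries. Skin and scale genes summed to 135 to 366 CPM in tert-/-, 159 to 1289 CPM in tert+/- and 134 to 781 CPM in wild type, with 6 and 2 of 8 lower, and 7 and 3 without the 3 libraries. Fast muscle genes were lower in 11 and 12 of 13 cases with TMM factors, and in 2 and 9 of 13 without the 3 libraries. These lists did not share the direction of the 10 genes in both mutants under both fits.

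Macrophage and neutrophil genes, at 8.74 to 36.4 CPM over all libraries, were lower for 6 of 8 in tert-/- and 2 of 8 in tert+/-, and for 5 and 2 without the 3 libraries. Schwann cell genes, at 206 to 1340 CPM, were lower for 7 and 4 of 8 (6 and 5 without the 3 libraries), and adipocyte genes, at 103 to 374 CPM, for 6 and 4 of 7 (4 and 4). Testis genes were lower for 0 and 4 of 15, and without the 3 libraries for 13 of 14 in tert-/- (median log2 fold change −0.99) and 2 of 14 in tert+/- (1.17). The adipocyte gene plin1 (perilipin) had no count in wild type, and all other listed markers were counted in every genotype. The part of these cell types in the lower levels of the 10 genes was not tested.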

How the data were processed

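Muscle RNA of 13 zebrafish samples was analysed. The authors deposited whole-number read counts for each gene and, separately, RPKM values. The tools named in the submitters' processing notes were bcl2fastq 1.8.4, STAR 2.4.1d and featureCounts 1.4.6-p4 on GRCz10. The study's methods instead name kallisto with an Ensembl release for its expression values, and whether that holds for the deposited tables is not stated. The strand setting and the handling of multiply matching reads are not stated either, so overlapping genes and paralogs may share reads. In the deposited RPKM values the library totals had been applied in turn down the rows, since over 2227 genes the implied gene length varied by a median of 67.8% with own totals and by at most 0.0563% with totals in turn. RPKM values were therefore recalculated from counts, own totals and the implied lengths.

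Gene symbols came from an annotation table that named 26269 of 32105 identifiers. The members and all gene lists were chosen with earlier results of these data known, and so was the group of 3 libraries with testis transcripts (a testis list share of at least 10 times the median). From each list the text names the 2 genes of smallest p per comparison whose higher genotype averages 1 CPM or more, or some of these, and for likeness the 3 genes of highest r per member or some of these.

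Counts were fitted with edgeR 4.0.16 (R 4.3.3; quasi-likelihood test, TMM factors, default filter, 13 libraries in 1 fit, Benjamini-Hochberg adjustment over 19407 genes). The SE of each edgeR value was derived from the test, as the absolute log2 fold change divided by the square root of its F statistic. CPM values were computed from the deposited counts, with the TMM factors of all 13 libraries. Exact permutation tests were two-sided on log2(CPM + 0.5), and correlations used 100000 permutations (scipy 1.17.1). Alternatives were DESeq2 1.42.0, limma-voom (limma 3.58.1), limma on log2(RPKM + 0.5), other pseudocounts (0.1 and 1), factors and filters, the compared genotypes alone, the testis share as a covariate, and leaving out samples. DESeq2 and plain CPM without the 3 libraries were added after the data were seen.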

Additional observations from a re-analysis of the deposited data

Results flagged for a closer look

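In 2 of 20 groups of 5 libraries, 1 library stood apart from the other 4 by more than Dixon's 95% limit, where chance marks about 1 group in 20. For dcn, wild type replicate 5 was the lowest of its genotype at 66.5 CPM (TMM-scaled), and it is 1 of the 3 libraries with testis transcripts. For lum, tert+/- replicate 2 was the highest of its genotype at 15.4 CPM, and it was also the highest tert+/- library for tnmd and dcn.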

How the results depend on the processing

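Of 113 counts over alternatives, 107 stayed within 1.5 times the value given. For genes called, that value was 0 in all 4 comparisons, so such a count stayed within the limit only by being 0 again. DESeq2 called 1 gene in tert-/- against wild type and 1 in tert-/- against tert+/- (nlrc8 both times), and without the 3 libraries with testis transcripts it called 35 genes in tert+/- against wild type, PRRX1 ENSDARG00000042027 among them, and 1 (SLC38A3) for the number of mutant alleles. Leaving out any single replicate gave 0 calls in all 4 comparisons. Of the correlated pairs, 17 passed without factors and 1 with genotype means removed.

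Fold changes of the 10 genes turned direction in 12 of 270 alternatives in tert-/- against wild type, 6 of 270 in tert+/- against wild type and 27 of 270 in tert-/- against tert+/-. In tert-/- against wild type, twist1b was 0.19 without factors and 0.0723, 0.0664 and 0.0714 in limma on log2(RPKM + 0.5), + 0.1 and + 1, and lum was 0.51 without factors, 0.0489 with the testis share as a covariate, and 0.37, 0.39 and 0.34 in limma with those pseudocounts. With 1 replicate left out, dcn ran from −0.57 to 0.10 (without tert-/- replicate 1) and lum from −0.39 to 0.20 (without wild type replicate 2). In tert+/- against wild type, without factors PRRX1 ENSDARG00000033971 was 0.00494 and dcn 0.10, dcn was 0.0233, 0.0228 and 0.0239 in limma with the pseudocounts 0.5, 0.1 and 1, and with 1 replicate left out dcn ran from −0.44 to 0.0266 (without tert+/- replicate 1).

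In tert-/- against tert+/-, limma-voom gave −0.0159 for twist2, −0.10 for PRRX1 ENSDARG00000042027, −0.00371 for pdgfra and −0.0335 for scxa. The same PRRX1 copy was −0.10 without factors and −0.0276 with the covariate, and tnmd −0.0317 with the covariate. Without the 3 libraries PRRX1 ENSDARG00000033971 was 0.0247 and dcn 0.0553 with edgeR, and 0.0204 and 0.0512 with DESeq2. With 1 replicate left out the ranges were −0.55 to 0.56 for twist1a, −0.19 to 0.84 for twist2, −0.33 to 0.30 for PRRX1 ENSDARG00000042027, −0.35 to 0.40 for pdgfra, −0.45 to 0.53 for scxa, −0.32 to 0.39 for tnmd and −0.45 to 0.20 for dcn, with the low end without tert-/- replicate 2, or 3 for tnmd and dcn. The cause was not tested. Counts were lowest for the twist genes and PRRX1 ENSDARG00000042027, with 7 to 116 per library. Whether low counts had a part in the turns was not tested. With 1 replicate left out, twist1a, twist2 and that PRRX1 copy turned direction, and twist1b did not. The genes pdgfra, scxa, tnmd and dcn, which had more counts, turned as well.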
